A study of Mus musculus with 15 samples.

Results

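The olfactory and vomeronasal receptor genes of the mouse were examined in histone H3 and ACF1 chromatin maps of the nucleus accumbens, a part of the ventral striatum that serves reward. They comprised every gene outside chromosome 1 that the 6 deposited H3 tables named with a symbol beginning Olfr, Vmn1r, Vmn2r or V1r. This gave 253 of the 6691 genes named outside chromosome 1. Of these, 157 were odorant receptor genes (Olfr), 31 were vomeronasal type 1 receptor genes (Vmn1r) and 65 were vomeronasal type 2 receptor genes (Vmn2r). No symbol began with V1r. All 253 symbols were found in RefSeq, and 4 were annotated there as pseudogenes.

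Mice of 3 groups were compared, all of strain C57BL/6. Susceptible and resilient mice had met a CD1 aggressor on each of 10 days, and a social interaction test then told them apart. Control mice are labelled Control, with no further detail. Tissue was collected at 48 hours after defeat ended, and punches of 10 mice were pooled for each replicate, so no value belongs to a single animal. Chromatin was digested with micrococcal nuclease for H3 and sheared for ACF1, a subunit of the nucleosome-spacing ACF complex. Replicates are mentioned in the labels, but each group or pair of groups came as 1 deposited result, so no spread between replicates was available, no test between groups was possible and depth is unknown. Neither file type measures expression, so the labelled tissue could not be set against its marker genes.

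Odorant receptors detect volatile molecules in the main olfactory epithelium. Each sensory neuron there expresses a single receptor allele, while the remaining receptor genes lie silent in heterochromatin. Vomeronasal type 1 and type 2 receptors serve the vomeronasal organ, which detects pheromones and other social cues, the type 1 receptors alongside the G protein subunit Gnai2 and the type 2 receptors alongside Gnao1. The genes form large clusters of similar copies, they are silent in most other tissues, and odorant and type 1 receptors have short coding regions usually held in 1 exon, whereas type 2 receptors have a long extracellular domain spread over several exons.

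The gene bounds in the tables followed this division. Odorant receptor genes had a median length of 948 bp, type 1 genes 921 bp and type 2 genes 28457 bp. For 169 of the 253 genes the listed length was a multiple of 3, as a coding length without untranslated parts would be. Some lengths are multiples of 3 by chance, and the count includes long type 2 genes, whose listed length is not a coding length. Members lay on 17 chromosomes, most on chromosome 7 (78 genes), chromosome 2 (35), chromosome 17 (27) and chromosome 9 (23). When members less than 1 Mb apart were joined, they fell into 46 clusters, and the 21 clusters of 5 or more members held 205 of them.

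Each H3 table listed places where the authors had called a nucleosome change between 2 groups. An occupancy position was marked Up or Down, and Up was taken as higher in the first-named group, which the files do not state. With the opposite reading every direction given here turns round. The tables gave no size, p-value or read count, and how reads matching several gene copies were treated is not given in the sources used here, so an assignment to 1 of several near-identical receptors is uncertain.

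At the starts of 5 odorant receptor genes a single nucleosome had more than 1 record. The sequences around these starts are shown because they carried the only receptor-gene positions within 250 bp of a start that recurred between tables. They come from RefSeq (GRCm38.p6), cover 250 bases before the annotated start and 50 from it on, and have the first 3 bases of the annotated gene in capitals. The letters there were ATG, a start codon, in all 5. Where an annotated gene begins at its start codon, its transcription start is not given, so the bases before need not be a promoter. The intervals were chr2:89363378-89363677, minus strand for Olfr1234; chr9:38377633-38377932, plus strand for Olfr251; chr2:87357196-87357495, plus strand for Olfr1120; chr6:116582895-116583194, minus strand for Olfr215; and chr4:118690401-118690700, minus strand for Olfr1342. These intervals are on another build than the mm9 positions given below and were not joined to them.
Olfr1234: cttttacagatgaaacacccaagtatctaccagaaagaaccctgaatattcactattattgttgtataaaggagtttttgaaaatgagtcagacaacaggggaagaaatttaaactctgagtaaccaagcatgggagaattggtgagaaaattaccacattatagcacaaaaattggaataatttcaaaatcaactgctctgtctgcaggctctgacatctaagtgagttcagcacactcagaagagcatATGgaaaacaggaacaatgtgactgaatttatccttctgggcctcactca
Olfr251: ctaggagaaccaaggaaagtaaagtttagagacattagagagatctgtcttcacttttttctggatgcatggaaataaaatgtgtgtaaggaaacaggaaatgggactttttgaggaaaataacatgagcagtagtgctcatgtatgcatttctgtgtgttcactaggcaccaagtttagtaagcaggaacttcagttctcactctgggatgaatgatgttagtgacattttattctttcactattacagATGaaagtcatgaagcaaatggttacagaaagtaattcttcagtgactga
Olfr1120: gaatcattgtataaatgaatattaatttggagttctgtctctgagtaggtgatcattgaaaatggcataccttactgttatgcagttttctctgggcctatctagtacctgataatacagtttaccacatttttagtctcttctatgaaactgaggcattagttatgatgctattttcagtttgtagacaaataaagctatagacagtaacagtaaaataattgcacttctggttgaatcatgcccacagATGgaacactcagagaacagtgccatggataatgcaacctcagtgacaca
Olfr215: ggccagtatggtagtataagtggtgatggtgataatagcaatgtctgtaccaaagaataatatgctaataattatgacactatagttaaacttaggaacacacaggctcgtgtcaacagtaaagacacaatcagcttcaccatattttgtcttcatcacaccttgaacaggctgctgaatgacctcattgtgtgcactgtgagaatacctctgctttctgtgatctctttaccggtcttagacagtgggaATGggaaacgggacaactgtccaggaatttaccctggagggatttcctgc
Olfr1342: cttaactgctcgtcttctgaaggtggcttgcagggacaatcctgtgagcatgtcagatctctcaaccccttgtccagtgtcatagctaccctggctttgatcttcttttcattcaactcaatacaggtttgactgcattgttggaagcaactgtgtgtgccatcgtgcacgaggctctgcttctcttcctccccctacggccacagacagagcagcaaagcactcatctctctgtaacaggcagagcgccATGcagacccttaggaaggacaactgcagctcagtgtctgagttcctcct

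The first pair had its position marked Up with resilient mice in the first place. At Olfr1234 (minus strand, start 89202639 and end 89203584 on chromosome 2 as listed, mm9), the nucleosome at 89203471, 112.5 bp into the gene, was marked Up for resilient mice against both control and susceptible mice. At Olfr251 (plus strand, 38185467 to 38186418 on chromosome 9 as listed), the position at 38185381, 85.5 bp before the start, was likewise marked Up in both tables. Neither position appeared in the susceptible against control table. The second pair had its position marked Down against control mice. At Olfr1120 (plus strand, 87197602 to 87198547 on chromosome 2 as listed), the position at 87197671, 69.5 bp into the gene, was marked Down both for susceptible and for resilient mice against control. At Olfr215 (minus strand, 116532029 to 116532962 on chromosome 6 as listed), the position at 116532891, 70.5 bp into the gene, was marked Down in the same 2 tables.

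Olfr1342 combined both kinds of change at one place. On chromosome 4 at 118363021, 33.5 bp into the gene (minus strand, 118362107 to 118363055 as listed), a shift of 70 bp was listed in susceptible against control and an occupancy position marked Down in resilient against control. The files do not say which direction the sign of a shift stands for. Among the receptor genes, 2 others had a shift and an occupancy position at one place, Vmn2r103 at 19949371 on chromosome 17 and Vmn2r57 at 48706841 on chromosome 7. At Vmn2r103 the occupancy position was in susceptible against control and the shift in resilient against susceptible. At Vmn2r57 the occupancy position was in resilient against control and the shift in susceptible against control. How often this happened over all genes was not counted.

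Promoter windows of the whole group were also read. RefSeq promoter windows were found for 226 members, in 229 windows, and 170 of these windows (74.2%) had ATG at the annotated start, against 5.83% of all 32851 windows. For these windows the annotated start is a start codon, so the bases searched before it need not be a promoter. The receptor windows averaged 37.5% G or C, all windows 53.8%. The homeodomain-type motif TAATGA, searched on both strands, was in 53 of the 229 receptor windows (23.1%) and in 9.78% of all windows. By family it was in 28.8% of 139 Olfr windows, 17.2% of 64 Vmn2r windows and 7.69% of 26 Vmn1r windows, the last below the share of all windows. The Olf/Ebf-type motif CCCNNGGG, whose fixed letters read alike on both strands and which cannot overlap TAATGA, was in 11 receptor windows (4.80%) and in 13.7% of all windows, with 3.60% of Olfr, 9.38% of Vmn2r and 0 of 26 Vmn1r windows. Neither was in any of the 5 sequences printed above. Base composition differs between the sets, and its part in these shares was not tested.

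Occupancy positions at receptor genes were about as often marked Up as positions anywhere in the same table. In susceptible against control, 58 of 130 positions were Up (44.6%, 95% Clopper-Pearson interval 35.9 to 53.6), against 40.4% of the 16617 positions of the table outside chromosome 1. In resilient against control, 50 of 115 were Up (43.5%, 34.3 to 53.0), against 38.3% of 16132. In resilient against susceptible, 50 of 102 were Up (49.0%, 39.0 to 59.1), against 48.8% of 14963. At all other named genes alone, 37.4%, 36.5% and 49.8% of positions were Up in the same order of tables. The share of the whole table and that of the other named genes both lay inside the interval of the receptor genes in every table. The intervals cover counting error only and take positions as independent, which neighbouring positions need not be. Receptor genes held 0.782%, 0.713% and 0.682% of the positions of the 3 tables, in the order just given.

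Counted by gene, 115 of the 253 members (45.5%) had a position in susceptible against control, where 53.9% of all 6691 named genes had one. The counts were 106 members (41.9%) against 53.3% in resilient against control, and 92 members (36.4%) against 49.2% in resilient against susceptible. All of these genes were in the set because some table named them, so the shares say how a table's calls were spread over the named genes. Most members are far shorter than most other named genes, and the part of gene length in these shares was not tested. In all, 245 members had an occupancy position and 8 had a shift only. Most had a single position, as 170 members had 1, 57 had 2 and 18 had 3 or more. Positions fell in 1 table for 182 members, in 2 tables for 58 and in all 3 for 5.

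How many receptor genes the tables named at all can be set against RefSeq. Of 1439 protein-coding receptor genes in RefSeq outside chromosome 1, 249 were named (17.3%), against 5456 of 19257 other protein-coding genes (28.3%). The families differed among themselves. The tables named 155 of 1083 Olfr genes (14.3%), 31 of 230 Vmn1r genes (13.5%) and 63 of 124 Vmn2r genes (50.8%). The Vmn2r genes are also the long ones, and most Olfr and Vmn1r genes are far shorter than most other named genes. The part of length was not tested, either in this order or in the contrast with other genes. Genes were matched by current symbol, so a gene named otherwise in the tables would count as not named.

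Olfr genes made up the larger share of positions in each table. In susceptible against control they had 36 Up and 43 Down, in resilient against control 29 Up and 42 Down, and in resilient against susceptible 28 Up and 24 Down. Vmn2r genes had 18 Up and 24 Down, then 15 Up and 18 Down, then 17 Up and 21 Down in the same order of tables. Vmn1r genes had at most 12 positions in a table, 4 Up and 5 Down, then 6 Up and 5 Down, then 5 Up and 7 Down. The interval of each family's share of Up contained the share of its table in all 9 cases. The plot of positions by family shows these counts.

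**Figure D1:**
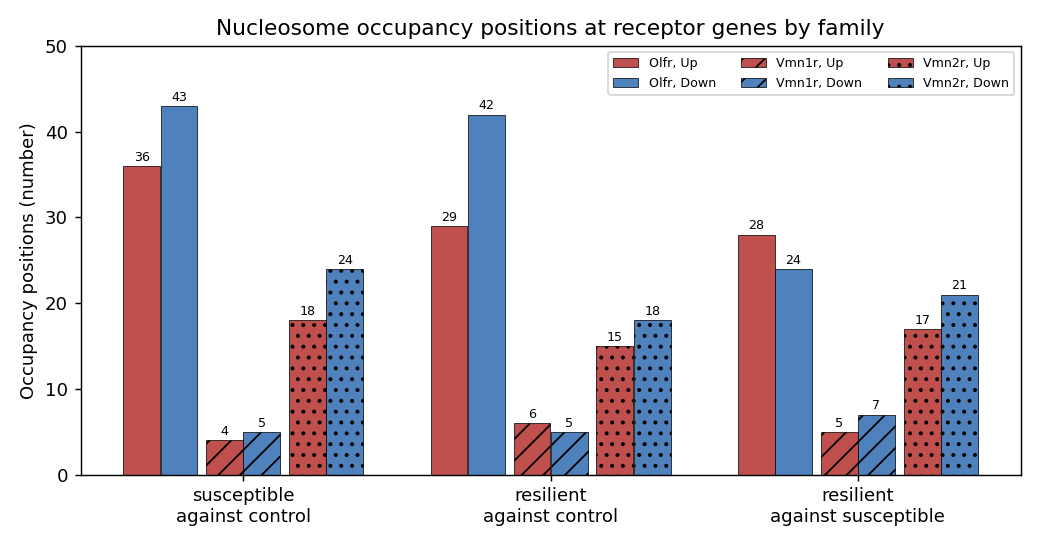
Number of occupancy positions marked Up (red) and Down (blue) at Olfr, Vmn1r and Vmn2r genes outside chromosome 1, for each pair of groups, with the counts above the bars. Down bars are the taller ones for Olfr against control mice (43 against 36 Up, and 42 against 29 Up), and the Up bar is the taller one for Olfr in resilient against susceptible (28 against 24 Down).

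Odorant receptors divide into class I, whose relatives dominate in fish and which cluster on chromosome 7 in the mouse, and class II, which is mainly found in land vertebrates. From the systematic names in RefSeq, 21 members were class I, 132 were class II and 4 could not be placed. Class I genes had 6 Up and 5 Down in susceptible against control, 3 Up and 5 Down in resilient against control, and 3 Up and 3 Down in resilient against susceptible. Class II genes had 29 Up and 38 Down, 24 Up and 36 Down, and 24 Up and 20 Down in the same tables. With at most 11 class I positions a table, the intervals of the classes overlapped widely.

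Most receptor-gene positions were in the tables' promoter classes. The tables' classes run to 250 bp, 1000 bp and 3000 bp on either side of a start, and for a receptor gene of about 1 kb these classes also take in the whole coding region and the sequence past its end. Of the receptor-gene positions, 71.5% in susceptible against control, 67.8% in resilient against control and, between the defeated groups, 65.7% were in a promoter class, against 12.1%, 11.5% and 11.1% for all other named genes. Those other genes had median lengths of 49253.5 bp, 49491 bp and 54111.5 bp in these tables. So a promoter class at a short receptor gene does not place the nucleosome upstream of it.

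Short receptor genes can be set beside other short genes. The 149 receptor genes under 2000 bp had 188 occupancy positions over the 3 tables, with 95 before the start (50.5%), 63 inside the gene (33.5%) and 30 past its end (16%). Of the 6000 bp around these starts, 50% of bases lay before the start, 16.3% inside the genes and 33.7% past their ends. The 116 other genes under 2000 bp had 145 positions, with 93 before the start (64.1%), 25 inside (17.2%) and 27 past the end (18.6%), where 19.3% of bases were inside. By table, the share inside the receptor gene was 36.8% (25 of 68; 95% Clopper-Pearson interval 25.4 to 49.3) in susceptible against control, 29.0% (20 of 69; 18.7 to 41.2) for resilient against control, and 35.3% (18 of 51; 22.4 to 49.9) between resilient and susceptible mice. For the other short genes it was 14.6% (6.07 to 27.8), 21.7% (12.1 to 34.2) and 13.5% (4.54 to 28.8). The intervals of the sets overlapped in every table, and no test was made. Inside the receptor genes 26 positions were Up and 37 Down, before the start 47 Up and 48 Down, and past the end 14 Up and 16 Down. At the other short genes these counts were 8 and 17, 30 and 63, and 7 and 20. They add up 3 tables in which Up refers to different groups. By table, 41.2%, 44.9% and 54.9% of positions at short receptor genes were Up, against 27.1%, 26.7% and 43.2% at the other short genes. The 95% intervals of these shares overlapped in every table, and the difference was not tested.

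**Figure D2:**
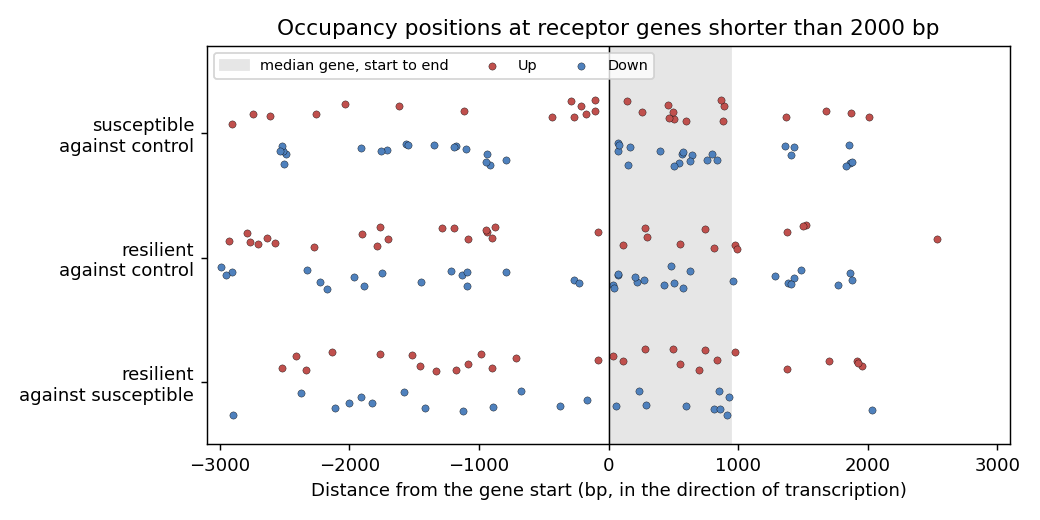
Each point is an occupancy position at a receptor gene under 2000 bp, placed by its distance in bp from the gene start in the direction of transcription; red points are Up, blue points are Down, and points are spread vertically only to separate them. The grey band runs from the start to the end of the median gene, and it holds much of the 33.5% of positions that lay inside genes.

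Positions within 250 bp of a start were a larger share of receptor-gene positions than of positions at other named genes, which are mostly far longer. In susceptible against control they numbered 14 (8 Up, 6 Down), or 10.8% of receptor-gene positions, against 0.791% at other named genes (15 Up, 28 Down). For resilient against control there were 10 (3 Up, 7 Down), or 8.70%, against 0.937% (13 Up, 37 Down). Between resilient and susceptible mice there were 6 (3 Up, 3 Down), or 5.88%, against 0.884% (21 Up, 21 Down). No test was made, and the part of gene length was not tested. Among the genes with the most such positions or first by symbol, Olfr1016 had a position 33.5 bp into the gene marked Up in resilient against susceptible, and Olfr1193 one 138.5 bp into the gene marked Up in susceptible against control. Olfr288 had one 168.5 bp before the start and Olfr497 one 165.5 bp into the gene, both Down in susceptible against control. Olfr1348 had one 233.5 bp into the gene marked Down in resilient against susceptible.

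Chromosome 9 and its genes named here were chosen after their values were seen. Its 23 members had 10 Up and 5 Down in susceptible against control, 1 Up and 7 Down in resilient against control, and 1 Up and 4 Down in resilient against susceptible. Over all positions on chromosome 9, 38.6%, 32.3% and 50.1% were Up in these tables. Within 250 bp of a start, 5 chromosome 9 genes had a position in susceptible against control, and all 5 were Up. These were Olfr851 at 211.5 bp before the start, Olfr160 at 106.5 bp before, Olfr917 at 104.5 bp before, Olfr860 at 100.5 bp before, and Olfr943 at 17.5 bp into the gene. Olfr160, known as M72, is an odorant receptor much used to trace sensory axons to their glomeruli. Within 1000 bp of a start the chromosome had 8 Up and 4 Down positions in this table. None of the 5 genes had a position in another table.

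Other chromosomes gave small and mixed counts. Chromosome 7, with the most members, had 15 Up and 22 Down in susceptible against control, 15 Up and 18 Down in resilient against control, and 12 Up and 20 Down in resilient against susceptible, while 42.4%, 34.4% and 40.5% of all its positions were Up in these tables. Chromosome 2, all Olfr, had 7 Up and 10 Down, then 4 Up and 10 Down, then 8 Up and 3 Down, with 40.4%, 40.7% and 50.3% of all its positions Up. Chromosomes 10 and 13 were picked after their values were seen, for a table with a single direction. Chromosome 10 had 2 Up and 2 Down, then 6 Up and 0 Down, then 4 Up and 2 Down in the same order. Chromosome 13 had 0 Up and 4 Down, then 2 Up and 4 Down, then 3 Up and 3 Down. The share of Up over all positions of these chromosomes was not computed. In the whole tables outside chromosome 1 it was 40.4%, 38.3% and 48.8%. Other chromosomes with fewer positions also had a single direction, such as chromosome 3 with 3 Up and 0 Down in susceptible against control. Chromosome 15 had 0 Up and 3 Down in resilient against control.

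**Figure D3:**
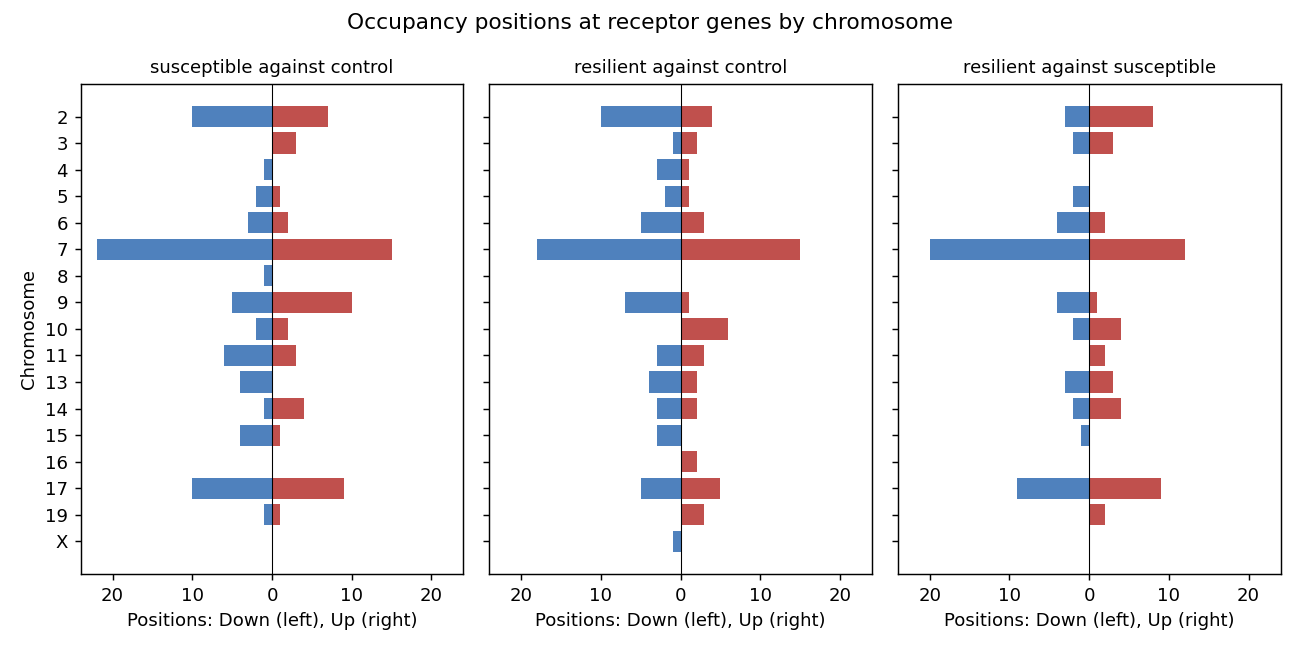
Occupancy positions at receptor genes per chromosome, with bars to the left for Down and to the right for Up, for the 3 pairs of groups. On chromosome 9 the longer bar is Up in susceptible against control (10 against 5 Down) and Down in resilient against control (7 against 1 Up).

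The 3 clusters with the most members were counted singly. On chromosome 7 from 109632627 to 112437574 as listed, 23 Olfr genes had 6 Up and 5 Down in susceptible against control, 4 Up and 6 Down in resilient against control, and 4 Up and 4 Down in resilient against susceptible. On chromosome 2 from 85419371 to 89982450, 20 Olfr genes had 4 Up and 6 Down, then 4 Up and 7 Down, then 5 Up and 3 Down. On chromosome 17 from 17840904 to 21424617, 17 Vmn2r and 2 Vmn1r genes had 8 Up and 8 Down, then 4 Up and 0 Down, then 8 Up and 8 Down.

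The genes with the most positions were mainly long type 2 genes. Vmn2r-ps11, a transcribed pseudogene listed over 211881 bp, had 6 positions, with 2 Up in susceptible against control and 1 Up and 1 Down in each of the other tables. Vmn2r92 had 5, of which 3 Down and 1 Up were in susceptible against control and 1 Up in resilient against susceptible. Its 3 Down positions lay 858.5, 3368.5 and 7578.5 bp into the gene and its Up position 9928.5 bp into it, so direction varied along one gene. Vmn2r103 had 4 positions, 2 Up and 1 Down in susceptible against control and 1 Up in resilient against control. Olfr288 had 4 as well, 2 of them Down in resilient against control, and 1 Up and 1 Down for susceptible against control.

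Direction also varied within Vmn2r61 and Vmn2r82, with 4 positions each. At Vmn2r61 the nucleosome 8479.5 bp into the gene was Up in the susceptible against control table but Down in resilient against susceptible, while the one 41559.5 bp from the start, just past the end, was Down in both tables against control. At Vmn2r82 the nucleosome 12176.5 bp into the gene was Up in both resilient tables, with another Up position at 21266.5 bp in resilient against control and a Down position at 6086.5 bp in resilient against susceptible. Genes with 3 positions were described only for those first by symbol, all Olfr. Type 2 genes such as Vmn2r54 and Vmn2r99 also had 3. Olfr1346 was Down once in every table, at 3 different places between 1120.5 and 2170.5 bp before the start. Olfr552, a class I receptor, was Down at 2 places in susceptible against control and at 1 in resilient against susceptible. Olfr605 and Olfr740 held both directions.

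Some nucleosomes were listed at exactly the same place in 2 tables. Because any 2 tables share a group, such a position picks out the group that differed from both others, and this is given as a description. There were 32 such positions in 31 genes. In 6 the susceptible mice were highest, in 13 the resilient mice were highest and in 13 the control mice were highest. In none was a group marked as lower than both others. In the whole tables outside chromosome 1 the same patterns led, with 1518 of 1525 shared positions susceptible highest, 1410 of 1417 resilient highest and 2204 of 2216 control highest. A single high group was thus the leading pattern of the whole tables too.

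As a share of each list, the 13 control-highest positions were 10.0% of the receptor positions in susceptible against control and 11.3% of those in resilient against control, where the whole tables had 13.3% and 13.7%. The 13 resilient-highest positions were 11.3% of those in resilient against control and 12.7% of those in resilient against susceptible, where the whole tables had 8.78% and 9.47%. The 6 susceptible-highest positions were 4.62% of those in susceptible against control and 5.88% of those in resilient against susceptible, where the whole tables had 9.18% and 10.2%.

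The susceptible-highest positions belonged to 3 Olfr and 3 Vmn2r genes, among them Olfr1211 at 598.5 bp into the gene and Olfr291 at 2278.5 bp before the start. The resilient-highest ones belonged to 10 Olfr and 3 Vmn2r genes, among them Olfr1016 at 743.5 bp into the gene, Olfr1370 at 903.5 bp before the start and Olfr221 at 1767.5 bp before the start. Vmn2r1, whose product is co-expressed with many other type 2 receptors, was also in this set, at 8118.5 bp into the gene. The control-highest ones belonged to 9 Olfr, 2 Vmn1r and 2 Vmn2r genes, among them Olfr1057 at 1865.5 bp and Olfr1303 at 1429.5 bp from the start, both past the end of the gene. Of the 32, 18 lay inside a gene.

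**Figure D4:**
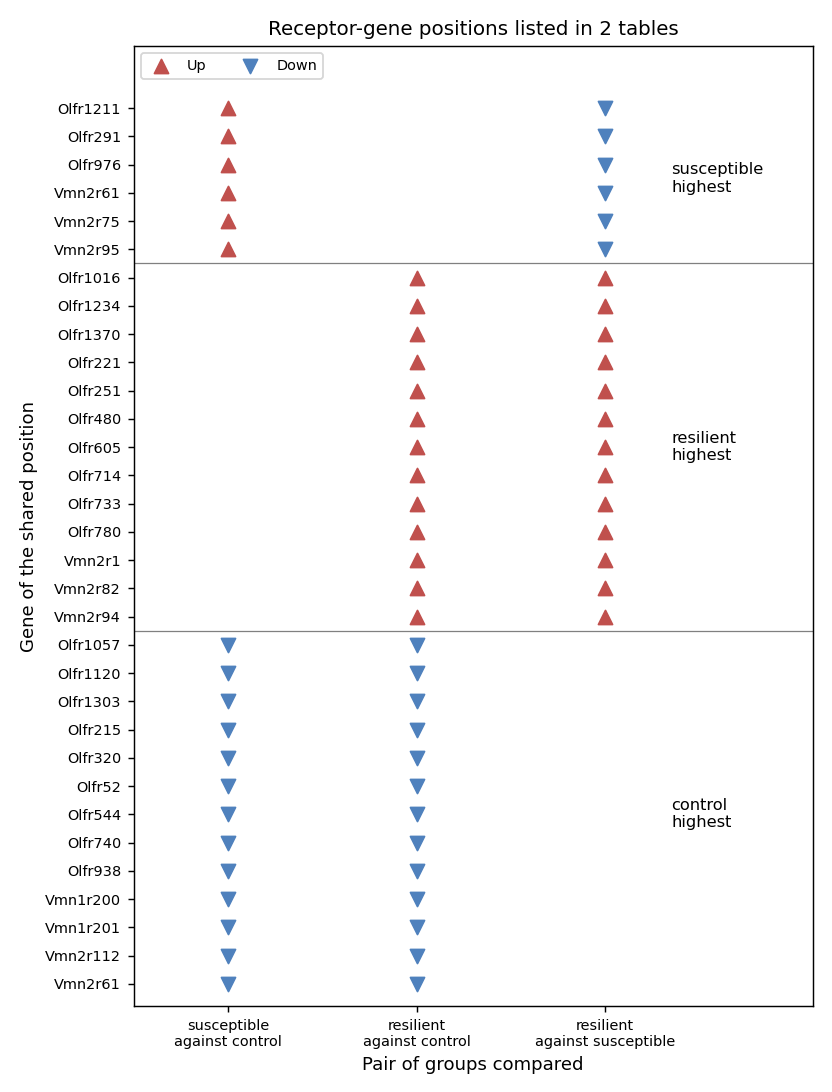
The 32 occupancy positions of receptor genes that stood at the same place in 2 tables, one line each and named by gene, with triangles for Up (red) and Down (blue) under each pair of groups. The lines fall into 6 with susceptible mice highest, 13 with resilient mice highest and 13 with control mice highest; Vmn2r61 has 2 lines.

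Shifts of a nucleosome were listed 16 times at receptor genes. There were 8 in susceptible against control, 5 for resilient against control and 3 between resilient and susceptible mice, which were 1.38%, 0.917% and 0.587% of all shifts outside chromosome 1. Positive shifts numbered 4, 4 and 1 of these, and 53.9%, 51.6% and 52.4% in the whole tables. All shifts measured 60 to 80 bp. The largest, 80 bp, were at Vmn2r23 in susceptible against control and at Olfr1313 and Vmn1r67 in resilient against control. Shifts of 70 bp in one or the other direction lay at Olfr1283, Olfr1342, Olfr1348, Olfr356, Olfr370 and Vmn2r57 in susceptible against control, at Vmn1r159 and Vmn2r60 in resilient against control, and at Vmn2r102, Vmn2r103 and Vmn2r59 in resilient against susceptible. Only Olfr1283 (101.5 bp) and Olfr1342 (33.5 bp) had theirs within 250 bp of the start.

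ACF1 segments lay over few receptor genes, as over few named genes of any kind, and those found were all over vomeronasal genes. The ACF1 files divide the genome into 2 states in 200 bp steps without a score, and the rarer state was taken as a segment. The files do not say which state stands for ACF1 binding, so every count of segments rests on this choice. A segment overlapped 1 of the 253 members in susceptible mice (0.395%), 2 in resilient mice (0.791%) and 4 in control mice (1.58%). Over all 6691 named genes the shares were 2.42% in susceptible, 1.40% in resilient and 1.81% in control mice. In any list, 6 of the 253 members had a segment (2.37%), while 3.53% of all named genes had one. By family these were 5 of 65 Vmn2r genes (7.69%), 1 of 31 Vmn1r genes (3.23%) and 0 of 157 Olfr genes. Dividing 3 by the 157 Olfr genes gives a rough upper limit of 1.91% for their share, which is not a Clopper-Pearson interval. The Vmn2r genes are the longest of the 3 families, and the part of length in these counts was not tested.

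The susceptible segment lay over Vmn2r111, on chromosome 17 from 22694601 to 22695400 (mm9), 14840 to 15640 bp into the gene. A control segment of the same width lay over the same gene at another place, from 22686801 to 22687600, 22640 to 23440 bp into it. The resilient list had the widest one, 4200 bp on chromosome 7 from 8952401 to 8956600, which ran from 1856 bp before the start of Vmn2r37 to 2344 bp into it and was the only segment across a receptor-gene start. It also had a segment over the end of Vmn1r224 on chromosome 17, from 20556801 to 20557600, covering 223 bp of the gene. The remaining control segments lay over Vmn2r14 on chromosome 5, from 109648401 to 109649200, Vmn2r81 on chromosome 10, from 78736801 to 78737800, and Vmn2r91 on chromosome 17, from 18272001 to 18273000. None of the 7 was in the same place in another list.

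Within 10 kb of a gene the lists came closer together, with 4 members in susceptible, 4 in resilient and 5 in control mice. Vmn2r102 had a segment in all 3 lists from 19795201 on, 1562 bp from the gene in susceptible mice, 1362 bp in resilient mice and 1562 bp in control mice. Olfr869 in susceptible mice (9963 bp away) and Olfr1475 in resilient mice (2114 bp away) were the only odorant receptor genes within that distance. The member clusters of 5 or more genes, which span 34.8 Mb, held 24 segments in susceptible, 18 in resilient and 21 in control mice, of 1047, 666 and 688 outside chromosome 1. That was 0.689, 0.517 and 0.603 segments per Mb in the clusters. The density over the whole genome was not computed, so whether segments were scarcer or denser in the clusters than elsewhere is not said here.

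The H3 positions and ACF1 segments did not meet at receptor genes. None of the 347 occupancy positions of the members lay in a segment of any list. Of all 47712 positions, 1.48% lay in a susceptible segment, 1.08% in a resilient one and 1.14% in a control one. Dividing 3 by 347 gives a rough upper limit of 0.865% for the members. It takes positions as independent, although 32 places were listed in 2 tables and so counted again. A limit this rough does not set the members apart from these shares. Within 10 kb of a segment were 4 member positions (1.15%) in susceptible, 4 in resilient and 4 in control mice, against 3.01%, 1.97% and 2.11% of all positions. The nearest approach at a gene with a segment was at Vmn2r14, where the resilient against control table had an Up position 321 bp from the control segment.

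**Figure D5:**
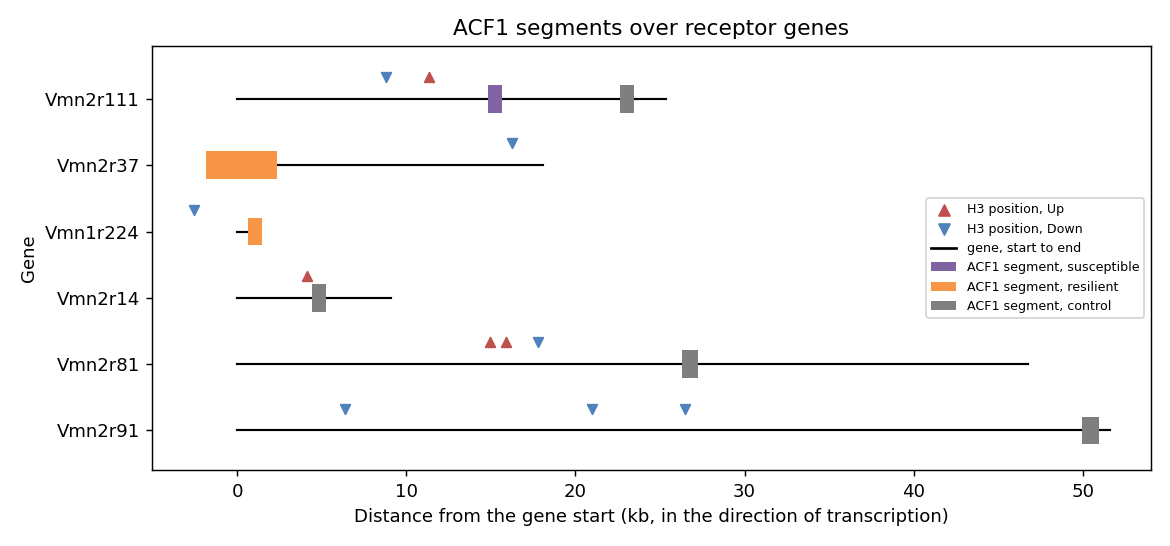
The 6 receptor genes overlapped by an ACF1 segment, drawn as lines from start to end in kb along the direction of transcription, with segments as boxes coloured by group and H3 occupancy positions as triangles for Up (red) and Down (blue). Vmn2r111 carries a susceptible and a control segment at separate places, and no triangle falls on a box; the nearest, at Vmn2r14, is 321 bp away.

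Genes of the olfactory pathway were a mixed group, counted from a list and not from how they moved. Over all positions with a gene name, 37.6% were Up in susceptible against control, 36.7% for resilient against control and 49.8% between resilient and susceptible mice. The tables named, by an occupancy position or a shift, 28.3% of protein-coding genes that are no receptor genes, as given above. Of 18 transduction genes, 7 had an occupancy position, with 1 Up and 10 Down in susceptible against control, 5 Up and 5 Down in resilient against control, and 5 Up and 2 Down in resilient against susceptible. Gnal, the olfactory G protein subunit that also couples dopamine receptors in the striatum, had 2 Down positions in susceptible against control and none elsewhere. Pde1c, a phosphodiesterase of olfactory cilia, had 4 Down in susceptible against control, 1 Up and 1 Down in resilient against control, and another 2 Down between resilient and susceptible mice. Ano2, the chloride channel of olfactory cilia, had 1 Up and 1 Down, then 3 Up and 1 Down, then 2 Up and 0 Down. Adcy3, Cnga2 and Omp, on which odour detection and mature sensory neurons depend or by which they are marked, had no position.

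All 3 receptor trafficking genes had a position, Rtp1 once Down in resilient against control, Rtp2 once Up in susceptible against control and Reep1 3 times Up in the tables against control. Of 20 genes of receptor choice and silencing, 7 had a position outside chromosome 1, with 3 Up and 11 Down in susceptible against control, 3 Up and 12 Down in resilient against control, and 5 Up and 6 Down in resilient against susceptible. Nfia, a transcription factor, had 0 Up and 5 Down, then 0 Up and 3 Down, then 3 Up and 3 Down. Ebf3 had only Down positions, 2, 4 and 1 in the 3 tables, while Ebf1 and Ebf2 held both directions. Lhx2, Ldb1 and Kdm1a, which act in receptor choice, and Setdb1 and Ehmt2, which methylate histone H3, had none. These are mostly long genes with other roles in the brain.

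Of the other chemosensory families, 20 genes were named and 18 held an occupancy position. Only named genes were counted, so a high share with a position was nearly fixed beforehand. By symbol they were Taar, Fpr, Tas1r, Tas2r and Ms4a genes and Gucy2d, so the counts are not of olfactory receptors alone. The 18 genes had 5 Up and 5 Down in susceptible against control, 4 Up and 11 Down in resilient against control, and 1 Up and 5 Down in resilient against susceptible. Ms4a1 alone had 4 positions. Gucy2d, the guanylate cyclase of a small set of olfactory neurons, had 7 positions, and at 2 of its places, 31960.5 and 32840.5 bp from the start, the nucleosome was Up with susceptible mice first and Down in resilient against susceptible. The trace amine receptor genes Taar5, Taar7b and Taar8b had 1 position each.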

How the data were processed

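H3 and ACF1 chromatin maps of pooled nucleus accumbens tissue were analysed from the files as the authors deposited them. CASAVA 1.8.2 was run and mm9 was the build, per the submitters' processing notes. The sources used here name no aligner and no program behind the tables or segments. Per the labels, reads were 100 bp long. SNF2H and input samples were not analysed here.

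From the deposited tables, positions, genes and shifts were counted by gene symbol outside chromosome 1, with Python 3.11.15, pandas 2.3.3, numpy 2.4.6 and scipy 1.17.1. Chromosome 1 was left out by the rule for members. There its receptor genes had 1 Up and 58 Down in susceptible against control, and only 3 Down positions when resilient mice were compared with control. Segments counted from 1 bp of overlap, and counting functions were tested on simulated positions. Positions and gene bounds are printed as the tables list them, segments 1-based. Members, lists and rules were chosen with earlier results of these data known. Genes named were those with a segment, and up to 12 each by number of positions, shared positions, shift size and positions near the start, 41 in all; genes outside this rule were chosen after their values were seen. Alternatives covered chromosomes, gene sets, classes and distances.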

Additional observations from a re-analysis of the deposited data

How the results depend on the processing

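Of the 61 recomputed values, 48 stayed within 1.5 times a count or within the 95% interval of a share. Gene bodies only left 37 positions in susceptible against control, 37 for resilient against control and 35 between resilient and susceptible mice. Olfr genes alone gave 79, 71 and 52 positions in these tables, and vomeronasal genes alone 51, 44 and 50, which are fewer because they hold part of the genes. With chromosome 1 included, the share of Up in susceptible against control was 31.2% in place of 44.6%, since 58 of the 59 positions added were Down. Genes within 10000 bp of a segment numbered 4 in susceptible and 4 in resilient mice, in place of 1 and 2. Within 1000 bp of a start, chromosome 9 had 8 Up positions in susceptible against control in place of 5. This last alternative, leaving out chromosome 9 and counting shifts on chromosome 1 were chosen after seeing the data. Without chromosome 9 the share of Up was 41.7%, 45.8% and 50.5% in the 3 tables. No paired analysis was possible because each group had 1 deposited result. With no counts in the files, depth sets no interval, and a gene without a position cannot be told apart from a gene too thinly covered to call.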
